A study of Homo sapiens with 4 samples.

Results

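The 36 genes described here encode aminoacyl-tRNA synthetases, the enzymes that join each amino acid to its tRNA. The rule took the genes of the array design that carry 1 of 36 synthetase symbols and used no measured value, although the list was drawn up with earlier results of these data known. All 36 were on the array, with 40 probes on 58 spots, among 27193 named genes. Of these, 20 encode cytosolic enzymes, with WARS among them, and 16 encode mitochondrial enzymes, whose symbols end in 2. The study compared control MCF10A.B2 cells (2 arrays) with MCF10A.B2 cells that express an shRNA directed at PAK1 (2 arrays). MCF10A.B2 is a human mammary epithelial line, derived from MCF10A, that carries a chimeric form of the receptor ErbB2 (Her2) which the crosslinker AP1510 switches on. All 4 samples carried this receptor, were serum starved for 3 h and received AP1510 for 15 min before RNA was extracted, so each comparison is between stimulated cells. One-colour Agilent whole genome arrays were used, with 1 array for each RNA.

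The methods describe the shRNA as tetracycline inducible. The labels call the other group control and wild type for PAK1, and no array of a non-targeting shRNA was analysed here, so the loss of PAK1 and the expression of a shRNA as such cannot be told apart. The methods do not say which cells received the inducer, so an effect of the inducer cannot be told apart either. The labels do not say how the replicates of a group arose, and the description of the series mentions cells derived from tumors where the sample labels name the cell line. The p-values therefore measure the spread between these samples, which may be technical. In such bulk RNA, fewer cells of a type and less RNA per cell cannot be told apart.

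An aminoacyl-tRNA synthetase activates its amino acid with ATP and transfers it to the matching tRNA, which then carries it to the ribosome. The cytosol and the mitochondria mostly use separate enzymes, both encoded in the nucleus, although GARS and KARS each serve both compartments. The enzymes fall into class I and class II, which have unrelated catalytic folds. Several cytosolic enzymes are held together by the scaffold proteins AIMP1, AIMP2 and EEF1E1 in the multisynthetase complex. Many synthetase genes are targets of ATF4, the transcription factor of the amino acid response, while WARS, the tryptophanyl-tRNA synthetase, is known as a gene induced by interferon gamma.

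The promoters of these genes differ in the letters that such factors bind. RefSeq promoters (GRCh38.p14, 250 bases before to 50 bases after a start) were found for 30 of the 36 members, with 39 entries among 35116 for all genes. WARS, now named WARS1, had 2 entries, both on the minus strand of chromosome 14. The 250 bases before the start of the second (chr14:100375348-100375597) are shown because they alone of the 2 held the interferon motifs searched. Capitals mark, in the order they are read, a match to the core of a gamma-activated site (TTCNNNGAA) and a match to the core of an interferon-stimulated response element (GAAANNGAA), which do not overlap.
WARS: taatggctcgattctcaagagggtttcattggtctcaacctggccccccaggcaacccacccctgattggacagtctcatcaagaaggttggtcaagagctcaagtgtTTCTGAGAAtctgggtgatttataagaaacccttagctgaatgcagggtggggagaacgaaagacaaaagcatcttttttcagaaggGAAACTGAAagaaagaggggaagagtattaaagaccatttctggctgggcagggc

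The first match began at position -142 and the second at -55 from the start. On both strands, GAAANNGAA was present in 8.11% of all promoters and in 5 of the 39 entries of the members, those of EARS2, GARS, IARS and WARS. TTCNNNGAA was present in 7.66% of all promoters and in 7 entries of the members, those of CARS, PARS2, TARS, WARS and WARS2. WARS was the member with both. A match is a run of letters and was not tested for binding.

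The core of the amino acid response element (TGATGNAA, both strands) was present in 3.62% of all promoters and in 8 of the 39 entries, 1 for each of 8 members. The 30 bases around each match are shown because 7 of the 8 belong to cytosolic enzymes, with the match in capitals and each sequence read along the strand of its gene.
AARS (chr16:70289675-70289704, minus strand): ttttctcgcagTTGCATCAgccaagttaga
CARS (chr11:3057407-3057436, minus strand): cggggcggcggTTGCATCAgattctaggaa
GARS (chr7:30594834-30594863, plus strand): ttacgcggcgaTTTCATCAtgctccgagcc
IARS (chr9:92293692-92293721, minus strand): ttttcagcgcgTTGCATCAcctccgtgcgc
MARS (chr12:57488053-57488082, plus strand): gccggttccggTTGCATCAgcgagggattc
NARS (chr18:57621804-57621833, minus strand): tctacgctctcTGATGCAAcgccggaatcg
TARS (chr5:33440956-33440985, plus strand): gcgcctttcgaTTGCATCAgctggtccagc
YARS2 (chr12:32756076-32756105, minus strand): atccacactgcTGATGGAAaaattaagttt

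In 6 of these 8 the match read TTGCATCA or its reverse complement TGATGCAA. It lay close to the start in MARS (position -4), CARS (-2), IARS (-13), TARS (2) and NARS (14), and farther upstream in AARS (-187).

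The share of probes well above background lay between 78.9% and 83.2% on the 4 arrays. After background correction and quantile normalization, 22023 genes were tested with limma, and 6852 were higher (31.1%) and 7001 lower (31.8%) in PAK1 shRNA cells at an adjusted p under 0.05, with a median log2 fold change of 0.02. PAK1, the gene the shRNA targets, had log2 intensities of 11.19 and 11.27 in control cells and 10.45 and 10.51 in PAK1 shRNA cells. Both PAK1 shRNA arrays were below both control arrays, and the gene stood at a log2 fold change of -0.75 (standard error, SE, 0.08, adjusted p = 0.000174 from limma), or 59.5% of the control level. All 10 markers of basal mammary epithelium examined were well above background on 4 arrays, 3 of them higher and 6 lower in PAK1 shRNA cells. Of the markers of other cell types, the leukocyte gene CD14 (1.32), the luminal gene FOXA1 (1.48) and the fibroblast gene COL1A1 (0.87) were higher. The luminal gene GATA3 (-0.49) and the endothelial gene PECAM1 (-1.56) were lower. So was the fibroblast gene PDGFRB, which was well above background on only 3 arrays and is given no fold. The summed signal of 4 leukocyte markers was 18626 to 19477 in control and 45082 to 48844 in PAK1 shRNA cells. The defining leukocyte gene PTPRC had a log2 fold change of 0.13 and was not called. The part of other cell types in the results below was not tested.

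Against that background, 4 of the 36 synthetase genes were higher in PAK1 shRNA cells (WARS, RARS, HARS and LARS2), 20 were lower and 12 were not called. Their log2 fold changes had a median of -0.30 and 28 of them were below 0. The members called lower thus made up 55.6% of the list against 31.8% of all genes, and those called higher 11.1% against 31.1%. The arrays of the 2 groups did not overlap in 32 of the 36. The same held for 17986 of the 22023 genes tested, so a lack of overlap was common on these arrays. All 36 were well above background on 4 arrays and none was saturated. The mean signal of their spots ran from 85.6 to 76230, and the local background beside them was at most 62.

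WARS, the cytosolic tryptophanyl-tRNA synthetase, changed most of all members. Its probe (chr14:100801041-100801100 in hg19, minus strand) had log2 intensities of 10.93 and 11.08 in control cells and of 15.24 and 15.66 in PAK1 shRNA cells. The groups did not overlap, and the gap between them was far wider than the spread within either. The log2 fold change was 4.45 (SE 0.14, 95% interval 4.10 to 4.79, adjusted p = 1.51e-06 from limma), or 21.8-fold. Before normalization, the mean spot signal was 2642 and 2304 in control and 33442 and 44862 in PAK1 shRNA cells. Of 22023 genes, 78 (0.354%) had a larger rise.

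The scanner read the slide at 2 gains, and bright spots were taken from the low-gain scan and scaled up. The dimmest spot read at low gain had a mean signal of 19213 to 19574 on the 4 arrays, and the brightest spot read at high gain 19977 to 19994 on 3 arrays and 55830 on control replicate 2. WARS was read at high gain in control cells and at low gain in PAK1 shRNA cells. DARS, IARS, SARS and VARS were read at low gain in control cells and at high gain in PAK1 shRNA cells, and all 4 were called lower. Among the 23 members read at high gain on all arrays, 1 was higher and 12 were lower, with a median log2 fold change of -0.23. This stands beside 31.1% higher and 31.8% lower over all genes tested. The part of the change of gain in the values of single genes was not tested. Under 19 alternative settings the log2 fold change of WARS ran from 4.19 to 4.64, with adjusted p from 1.04e-09 to 0.021.

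WARS2 encodes the mitochondrial tryptophanyl-tRNA synthetase. Its log2 intensities were 10.43 and 10.54 in control cells and 10.07 and 9.96 in PAK1 shRNA cells. Both PAK1 shRNA arrays lay below both control arrays, the opposite of WARS, and the log2 fold change was -0.47 (SE 0.08, adjusted p = 0.00241 from limma). The difference between the log2 intensities of WARS and WARS2 was 0.50 and 0.54 in control cells and 5.17 and 5.70 in PAK1 shRNA cells. It thus widened by 4.92 between the groups, with a two-sided exact permutation p = 0.333, the smallest that 6 splits of 4 arrays allow. The longest run of bases shared by the 60-base probes of WARS and WARS2 was 7, and over all 630 pairs of member probes it was at most 10.

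**Figure D1:**
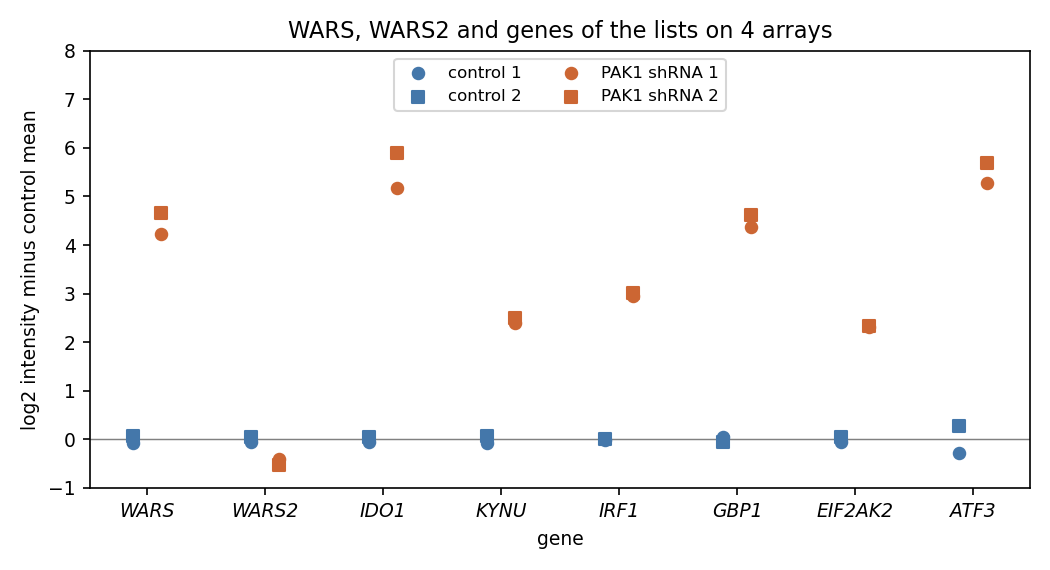
Log2 intensity minus the control mean of the same gene (y axis) for WARS, WARS2 and 6 genes of related lists (x axis), with 1 point for each of the 2 control and 2 PAK1 shRNA arrays. WARS rose by 4.45 while WARS2 stood at -0.47. The other 6 genes shown are all genes called higher, on both PAK1 shRNA arrays, and do not stand for their lists.

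The other 19 cytosolic enzymes moved far less and mostly the other way. Of these, 12 were lower, 2 were higher and 5 were not called, with a median log2 fold change of -0.32 and a range of -0.96 to 0.61. The shares over all genes tested were 31.8% lower and 31.1% higher. The largest fall was that of FARSB, which encodes the beta subunit of the phenylalanyl-tRNA synthetase. FARSB is shown with its probe, and so is EPRS, because their probes carried the 2 largest falls (FARSB, chr2:223489002-223489061 in hg19, minus strand, and EPRS, chr1:220142404-220142463 in hg19, minus strand).
FARSB: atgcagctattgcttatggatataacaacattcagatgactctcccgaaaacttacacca
EPRS: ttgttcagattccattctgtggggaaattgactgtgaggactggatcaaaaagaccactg

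FARSB had log2 intensities of 11.34 and 11.43 in control cells and of 10.47 and 10.37 in PAK1 shRNA cells. Its groups did not overlap, and its log2 fold change was -0.96 (SE 0.08, adjusted p = 6.85e-05 from limma), or 51.3% of the control level. FARSA, which encodes the catalytic alpha subunit of this enzyme, fell by 0.32 on the log2 scale (adjusted p = 0.00834). Its call was lost without PAK1 shRNA replicate 2, where it stood at -0.30 (adjusted p = 0.0527).

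EPRS carries a glutamyl-tRNA and a prolyl-tRNA synthetase in 1 chain. Its log2 intensities were 15.68 and 15.74 in control cells and 14.80 and 14.73 in PAK1 shRNA cells. Again both PAK1 shRNA arrays were lower, and the log2 fold change came to -0.95 (adjusted p = 5.71e-05). The local background beside its spot was flagged on both control arrays, at 62 and 50.5 against a mean signal of 67995 and 58145. Such spots were kept unless the local background exceeded 100, and where every spot flagged for background was left out EPRS could not be fitted.

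QARS, AARS and VARS charge tRNA with glutamine, alanine and valine. QARS had log2 intensities of 15.41 and 15.33 in control and 14.62 and 14.48 in PAK1 shRNA cells, a log2 fold change of -0.81 (adjusted p = 0.000187). AARS had 10.24 and 10.40 in control and 9.54 and 9.51 in PAK1 shRNA cells, a log2 fold change of -0.79 (adjusted p = 0.000222). VARS had 14.54 and 14.50 in control and 13.90 and 13.82 in PAK1 shRNA cells, a log2 fold change of -0.66 (adjusted p = 0.000303). In all 3 genes the groups did not overlap, and the gap between groups was wider than that between replicates.

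Smaller falls were found for the enzymes of serine, leucine, aspartate, isoleucine, tyrosine and asparagine. The log2 fold changes were -0.60 for SARS, -0.57 for LARS, -0.41 for DARS and -0.36 for IARS. YARS stood at -0.28 (adjusted p = 0.0355) and NARS at -0.23 (adjusted p = 0.0449), the closest to the threshold among the cytosolic genes called lower. YARS was no longer called without control replicate 2 (-0.20, adjusted p = 0.152) or without PAK1 shRNA replicate 2 (-0.21, adjusted p = 0.186). Under cyclic loess normalization IARS (-0.19, adjusted p = 0.0539) and NARS (-0.14, adjusted p = 0.18) lost their calls. NARS was no longer called without control replicate 2 (-0.16, adjusted p = 0.168), PAK1 shRNA replicate 1 (-0.25, adjusted p = 0.118) or PAK1 shRNA replicate 2 (-0.22, adjusted p = 0.163).

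The second probe of SARS and both other probes of IARS were read at high gain on all arrays and differed less between groups. Their differences were -0.18 for SARS and -0.12 and -0.08 for IARS, against -0.60 and -0.36 for the brighter probes used. The probes of MARS differed by -0.12 and -0.15. No member had probes of opposite sign, and the other 33 members had 1 probe each.

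RARS, the arginyl-tRNA synthetase, was the other cytosolic gene, beside WARS, that stayed past the threshold in the upward direction under the alternatives tried. Its log2 intensities were 15.60 and 15.65 in control cells and 16.19 and 16.26 in PAK1 shRNA cells. The groups did not overlap and the log2 fold change was 0.61 (SE 0.08, adjusted p = 0.000444 from limma), past the threshold under all 19 alternatives tried, where it ran from 0.57 to 0.82. HARS, the histidyl-tRNA synthetase, had log2 intensities of 14.16 and 14.14 in control and 14.32 and 14.39 in PAK1 shRNA cells. Its groups did not overlap either, but its log2 fold change of 0.21 (adjusted p = 0.0442) passed the threshold under 9 of 19 alternatives, over which it ran from 0.17 to 0.37. It was not called without any 1 of the 4 arrays, where it ran from 0.17 to 0.24.

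The 5 cytosolic genes not called were KARS (0.09, 95% interval -0.11 to 0.30), GARS (0.01, -0.19 to 0.20), MARS (-0.12, -0.29 to 0.05), TARS (-0.17, -0.39 to 0.05) and CARS (-0.17, -0.36 to 0.01), each given as a log2 fold change. These intervals leave room for changes down to -0.39 on the log2 scale. GARS and KARS, whose products serve both compartments, were among them.

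**Figure D2:**
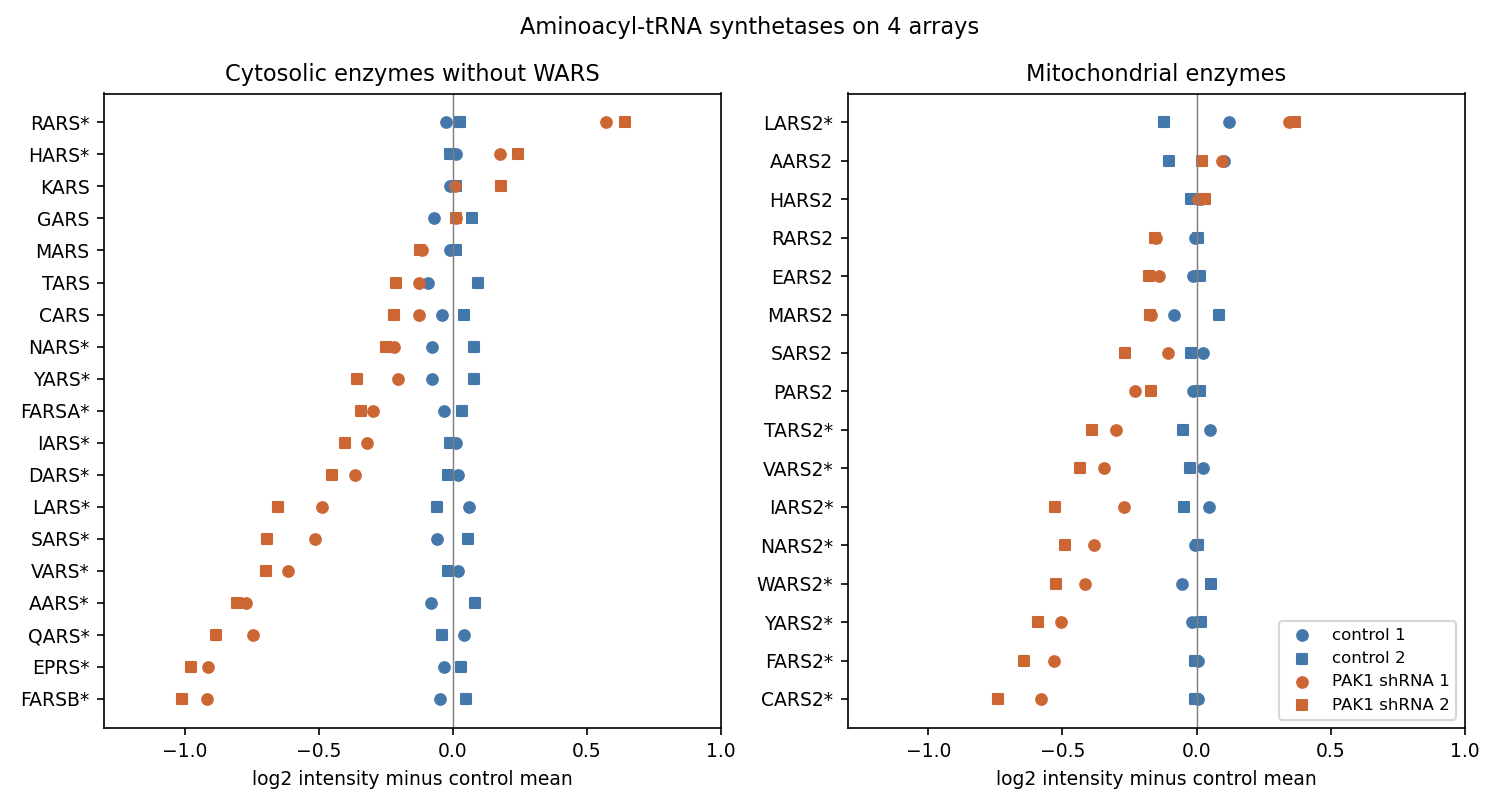
Log2 intensity minus the control mean of the same gene (x axis) for 19 cytosolic enzymes without WARS and 16 mitochondrial enzymes (y axes), with 1 point per array (2 control and 2 PAK1 shRNA) and an asterisk for an adjusted p under 0.05. Most PAK1 shRNA points lie left of 0, down to FARSB and CARS2, while RARS, HARS and LARS2 lie right of 0.

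The 8 cytosolic enzymes of the multisynthetase complex (DARS, EPRS, IARS, KARS, LARS, MARS, QARS and RARS) and the 11 others without WARS were counted apart. The counts below stand beside 31.1% higher and 31.8% lower over all genes tested. In the complex 5 were lower and 1 was higher, with a median log2 fold change of -0.39, and among the others 7 were lower and 1 was higher, with a median of -0.28. The complex thus held both the gene with the second largest fall, EPRS, and RARS, which rose. Of the 17 class I enzymes without WARS, 10 were lower and 2 higher (median -0.36). Of the 17 class II enzymes, 9 were lower and 1 higher (median -0.23). The 8 members with the amino acid response element core printed above had 4 genes lower and 0 higher (median -0.20), and the 22 other members with a promoter had 11 lower and 4 higher (median -0.26). Of the 4 members whose promoters held the interferon element core, WARS rose, IARS fell by 0.36, and EARS2 (-0.16) and GARS (0.01) were not called.

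The 16 mitochondrial enzymes also lay mostly below 0. Of these, 8 were lower, 1 was higher and 7 were not called, with a median log2 fold change of -0.27 and a range of -0.66 to 0.36. Over all genes tested, 31.8% were lower and 31.1% higher. CARS2, the mitochondrial cysteinyl-tRNA synthetase, had the largest fall, with log2 intensities of 15.85 and 15.84 in control and 15.26 and 15.10 in PAK1 shRNA cells. Its groups did not overlap, and its log2 fold change was -0.66 (SE 0.08, adjusted p = 0.000498 from limma). FARS2, which unlike the cytosolic phenylalanyl enzyme works as a single chain, had log2 intensities of 10.04 and 10.03 in control and 9.5 and 9.39 in PAK1 shRNA cells. It fell by 0.59 on the log2 scale (adjusted p = 0.000599).

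YARS2 and NARS2 charge mitochondrial tRNA with tyrosine and asparagine. YARS2 had log2 intensities of 12.24 and 12.27 in control and 11.75 and 11.66 in PAK1 shRNA cells, a log2 fold change of -0.55 (adjusted p = 0.000736). NARS2 had 10.99 and 11 in control and 10.61 and 10.51 in PAK1 shRNA cells, a log2 fold change of -0.44 (adjusted p = 0.00238). For both, the PAK1 shRNA arrays lay below the control arrays with no overlap. WARS2, described above, IARS2 (-0.40), VARS2 (-0.39) and TARS2 (-0.35) completed the genes called lower. IARS2 lost its call under cyclic loess (-0.18, adjusted p = 0.155) and with processed signals scaled to the 75th percentile (-0.26, adjusted p = 0.0911). It was also no longer called without control replicate 1 (-0.36, adjusted p = 0.0619) or PAK1 shRNA replicate 2 (-0.28, adjusted p = 0.0734), and TARS2 not without PAK1 shRNA replicate 2 (-0.30, adjusted p = 0.0553).

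LARS2, the mitochondrial leucyl-tRNA synthetase, was the mitochondrial gene called higher. Its log2 intensities were 12.77 and 12.53 in control and 12.99 and 13.02 in PAK1 shRNA cells. The groups did not overlap, although the control arrays lay farther apart than in most members, and the log2 fold change was 0.36 (adjusted p = 0.0175). It was no longer called without control replicate 2 (0.23, adjusted p = 0.0665), PAK1 shRNA replicate 1 (0.37, adjusted p = 0.0562) or PAK1 shRNA replicate 2 (0.34, adjusted p = 0.0703).

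The 7 mitochondrial genes not called had log2 fold changes of -0.20 (PARS2, adjusted p = 0.0504), -0.19 (SARS2), -0.17 (MARS2), -0.16 (EARS2), -0.15 (RARS2), 0.02 (HARS2) and 0.06 (AARS2). PARS2, the prolyl enzyme, sat at the threshold and passed it under 7 of 19 alternatives. The 95% interval of SARS2 ran from -0.39 to 0.01, the lowest bound among the 7. MARS2 and, among the cytosolic genes, NARS were printed on 10 spots per array, and the spots of MARS2 had an SD of 0.06 to 0.13 within an array and those of NARS of 0.12 to 0.17.

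The 2 compartments were set side by side in 17 pairs of a cytosolic and a mitochondrial enzyme for the same amino acid, with EPRS and FARS2 each in 2 pairs. In 6 pairs both genes were lower (FARSA and FARSB with FARS2, and the pairs for isoleucine, asparagine, valine and tyrosine). No pair had both genes higher. Taken singly, 31.8% of all genes tested were lower and 31.1% higher. The pairs for tryptophan and leucine had 1 gene higher and 1 lower, in opposite order, since WARS rose and WARS2 fell whereas LARS fell and LARS2 rose. For alanine the cytosolic gene fell (AARS, -0.79) while AARS2 stood at 0.06, and for cysteine the mitochondrial gene fell (CARS2, -0.66) while CARS stood at -0.17 and was not called. The differences within pairs were not tested, except for that of tryptophan, where the exact permutation p could not fall below 0.333.

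Related genes were then counted by list, to be read beside the 31.1% higher and 31.8% lower over all genes tested. The scaffolds of the multisynthetase complex had 2 of 3 genes lower, AIMP2 (-0.86) and EEF1E1 (-0.91), while AIMP1, measured on 10 spots, stood at 0.06. The elongation factors eEF1 and eEF2, which bring charged tRNA to the ribosome and move it along, had 5 of 6 genes lower and 0 higher (median -0.77), with EEF1B2 at -1.42 and EEF2 at -0.98. Of 12 genes that mature or export tRNA, 7 were lower and 1 was higher (median -0.37), with RPP40, a subunit of ribonuclease P, at -1.08 and TSEN34, of the tRNA splicing endonuclease, at -0.78. Of 13 mitochondrial translation factors, 2 were lower and 4 higher (median 0.06), near the 31.1% higher and the median of 0.02 over all genes. MTFMT, which formylates the methionine on the initiator tRNA that MARS2 charges, was at -1.57, against -0.17 for MARS2. MARS2 had the dimmest spots of all members, with a mean signal down to 85.6. MTRF1, a release factor, was at 0.83.

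The genes around amino acid supply did not move as one group. Of 16 genes of the amino acid response, 7 were higher and 5 lower (median 0.10). Over all genes tested, 31.1% were higher and 31.8% lower, so the count of lower genes was near the share over all genes. Its transcription factor ATF4 stood at 0.08 and was not called. ATF3 was higher by 5.48 on the log2 scale, NUPR1 by 1.98 and VLDLR by 1.63. PHGDH, of serine synthesis, was at -3.90, TRIB3 at -1.72 and ASNS, the asparagine synthetase, at -1.62. Of 10 amino acid transporters, 8 were lower and 2 higher (median -1.16), with SLC7A5, which carries tryptophan and leucine into cells, at -3.04, its partner SLC3A2 at -1.99, and the glycine transporter SLC6A9 at 2.06. Of 4 kinases of eIF2 alpha, 2 were lower, 1 was higher and 1 was not called. EIF2AK4 (GCN2), which senses uncharged tRNA, was at -0.67 and EIF2AK1 at -0.58. EIF2AK2 (PKR), which binds double-stranded RNA, was higher by 2.32.

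WARS was set beside the genes of tryptophan breakdown and of the interferon gamma type, again with 31.1% of all genes higher and 31.8% lower. Of 5 genes of tryptophan breakdown well above background on all arrays, 4 were higher and 1 lower (median 0.77). TDO2 passed the filter only through the PAK1 shRNA arrays, and with it the median was 1.61. IDO1, which opens the tryptophan ring, had log2 intensities of 6.97 and 7.07 in control and 12.18 and 12.91 in PAK1 shRNA cells, and KYNU, a later enzyme of the same path, was higher by 2.45. Of 8 genes of the interferon gamma type counted, 7 were well above background on all arrays and all 7 were higher (median 3.89), against 4.45 for WARS. CXCL9 passed the filter without being well above background on all arrays, and with it the median was 3.75. IRF1, a transcription factor of the interferon response, was higher by 2.98, GBP1 by 4.49 and CXCL10 by 11.17. CXCL10 had log2 intensities of only 6.45 and 6.57 in control cells. These lay below the 7.10 and 7.27 of MARS2, the member with the dimmest spots. The size of the CXCL10 change rests on these low control values and on the offset of the background correction, and is uncertain.

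**Figure D3:**
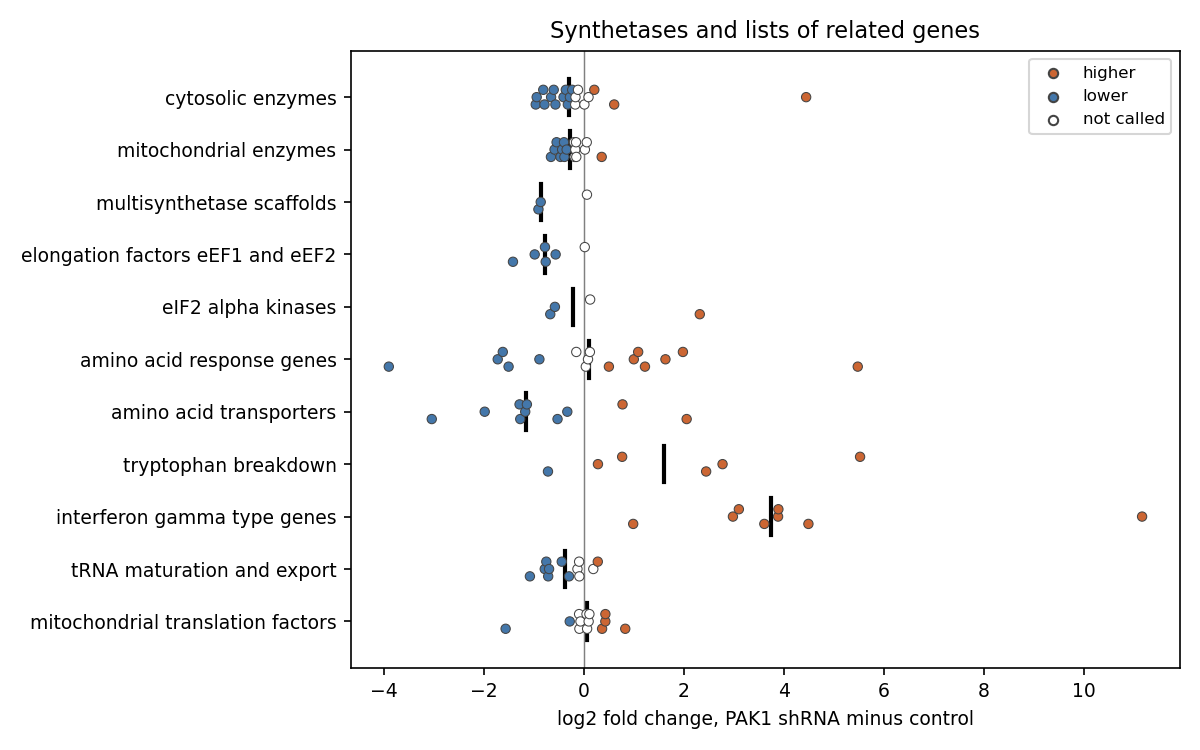
Log2 fold change, PAK1 shRNA minus control (x axis), of the cytosolic and mitochondrial synthetases and 9 lists of related genes (y axis), with 1 point per gene, coloured by call, and a bar at each median. The medians of the synthetases (-0.30 and -0.27) lie below 0, and WARS (4.45) lies apart from the other cytosolic enzymes, in the range of the interferon gamma type genes.

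**Figure D4:**
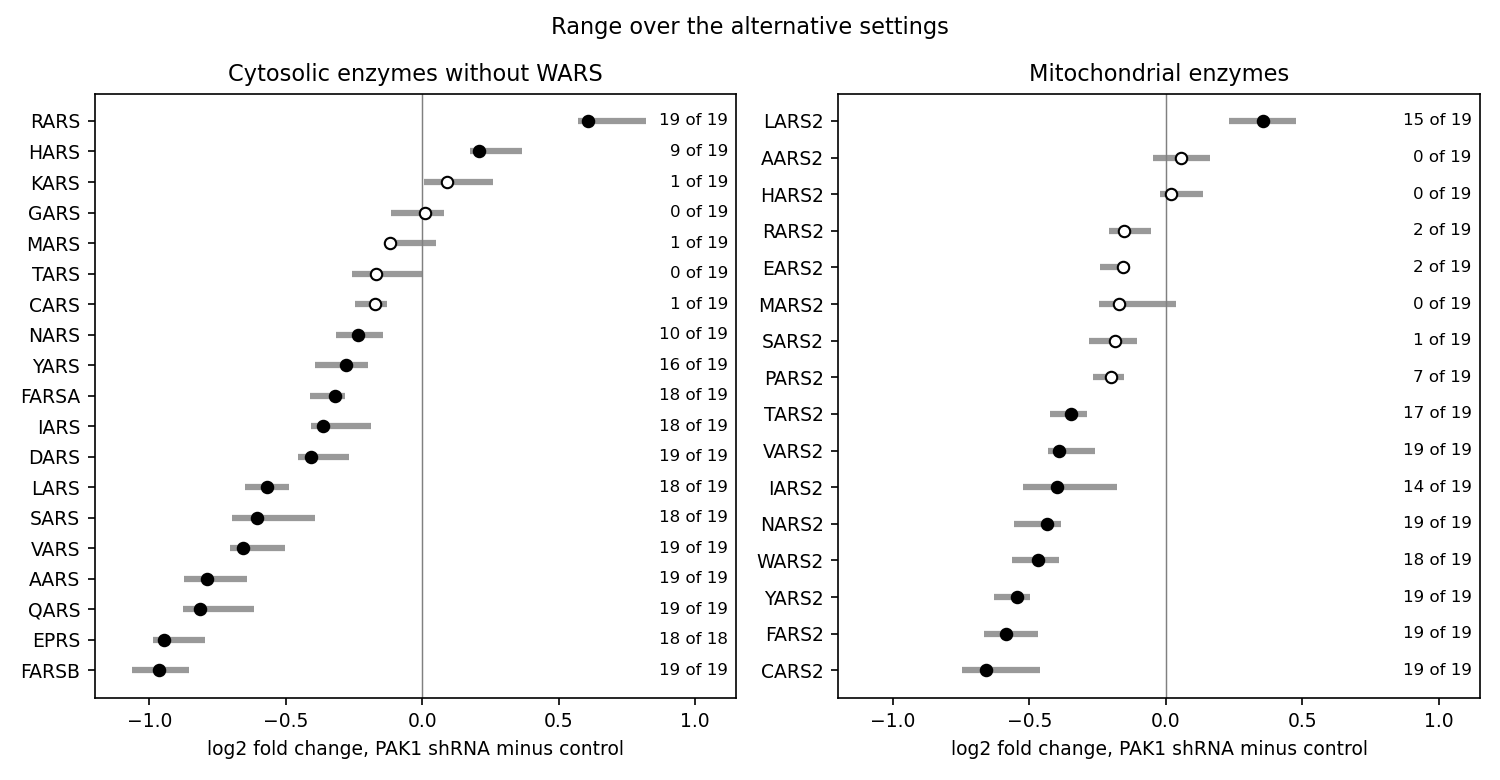
Log2 fold change, PAK1 shRNA minus control (x axis), of the 35 enzymes other than WARS (y axes), with a circle at the reported value, filled where called, and a grey bar from the lowest to the highest value over 19 alternative settings (18 for EPRS). The numbers at the right give in how many settings a gene was called. Genes called at the reported value ran from 19 of 19 for RARS and FARSB to 9 of 19 for HARS. Those not called there ran from 7 of 19 for PARS2 to 0 of 19, as for GARS.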

How the data were processed

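RNA of 4 MCF10A.B2 samples was measured on 4 one-colour Agilent arrays of 1 slide. The deposited scanner output holds the intensity of every spot, from Agilent Feature Extraction (9.5.3.1 per the file headers, 9.5 per the labels), not normalized across arrays. A table of normalized log2 values from the authors served as an alternative (median 9.40 to 9.42 per array, correlation with the values here at least 0.999, so its scale is log2 intensity without centring). Here mean spot intensities were background corrected with normexp (offset 50), fitted without spots flagged for background. With all spots, the fitted mean was -666 and -740 on the control arrays, against -9.19 and -12.1 without the flagged spots. On these arrays 562 and 604 spots other than controls were flagged for background. A local background above 100 was found at 8 and 18 spots, and their part in the fit was not tested separately. Spots with a feature flag or a local background above 100 were left out, spots other than controls were quantile normalized, and repeated spots were averaged by probe. A probe entered if both arrays of either group had it well above background, and each gene was read from its brightest probe. The methods name normexp, quantile normalization and limma's moderated test for the arrays, and an unpaired t-test in a general section on statistics. The fit used lmFit and eBayes of limma 3.58.1 (R 4.3.3) over 22023 genes, adjusted p (Benjamini-Hochberg) under 0.05 being the threshold. The code of the fit was run on simulated data with independent noise, few changed genes and no normalization step. That setting differs from these arrays, so the run says nothing about the calls made here. Promoters and figures were handled in Python 3.11.15. The number of arrays limits the precision.

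Values by array are given for WARS, PAK1 and, in each class, up to 5 largest rises and 5 largest falls past the threshold. For list genes they are given only for IDO1 and, in control cells, CXCL10. Genes named from a list are a selection and not always those with the largest change. The members and the lists were chosen with earlier results of these data known. Same-numbered arrays did not deviate together (r = 0.00812 over 27505 probes), and the main fit did not pair samples by replicate number. The check cannot exclude a pairing, since it rests on a single difference within each group. Coordinates of probes were taken from the scanner output (hg19), gene names from the array design, and promoters from RefSeq (GRCh38.p14). TDO2, CXCL9 and PDGFRB, not well above background on all arrays, are given no fold. TDO2 and CXCL9 are plotted at their fitted values, and IDO2 was not tested. Alternatives covered background correction, scaling, the filter, spots with a flag, the choice of probe, the test and its threshold, a replicate block, and leaving out each array. A gene of the interferon gamma type list is not reported here.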

Additional observations from a re-analysis of the deposited data

How the results depend on the processing

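WARS kept its rise past the threshold under all 19 alternatives, and PAK1 its fall (-0.86 to -0.66). Of 664 values of the 35 other enzymes, 600 kept direction and side of the threshold, 11 changed sign while not called in either setting, 38 lost and 15 gained the call, and 0 called values changed sign. Under cyclic loess KARS (0.26) was called, and IARS (-0.19), NARS (-0.14) and IARS2 (-0.18) were not. DARS moved to -0.27 there, still called, and SARS to -0.39 with the mean over its probes, also still called. The median of the cytosolic enzymes without WARS ran from -0.39 to -0.27 and that of the mitochondrial enzymes from -0.33 to -0.19. The median of all genes was 0.12 with processed signals scaled to the 75th percentile, 0.14 with median centring, and -0.00027 in the authors' table, where its sign changed. Median centring called 8540 genes higher and 6646 lower. The unpaired t-test, which the study's statistics section names in general and not for the arrays, called 4416 genes and 0 mitochondrial enzymes higher after Benjamini-Hochberg adjustment, added here, and 5914 genes higher and 6206 lower at an unadjusted p under 0.05, while limma at an adjusted p under 0.01 called 0 mitochondrial enzymes higher too. With a change of at least 2-fold required as well, 1953 genes were higher and 1967 lower, 1 cytosolic enzyme (WARS) was higher and 0 lower, and 0 mitochondrial enzymes were higher and 0 lower. Leaving out 1 array gave 0 to 1 mitochondrial enzymes higher, 0 without control replicate 2, PAK1 shRNA replicate 1 or PAK1 shRNA replicate 2. With the replicate block the cytosolic counts were 2 higher and 12 lower, WARS stayed at 4.45, and HARS lost its call (adjusted p = 0.0604). With every spot flagged for background left out, an alternative chosen after seeing the data, EPRS could not be fitted and RARS had 1 control array. A block for the slide was not run, because all arrays lay on 1 slide. Where values fell under or moved across a threshold, the cause was not tested.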
